A study of Homo sapiens with 33 samples.

Results

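The BCL2 family decides at the mitochondrion whether a cell under stress lives or dies, and 10 of its genes were followed here, out of 62446 gene rows, across 33 RNA-sequencing libraries of acute lymphoblastic leukaemia (ALL) cell lines. The genes were listed by name as family members, with earlier results of these data known, and every row whose Ensembl gene identifier maps to 1 of the 10 symbols was taken, which gave 1 row per symbol. Of the 10, 7 promote cell death (BCL2L11, BMF, BBC3, PMAIP1, BID, BAX and BAK1) and 3 oppose it (BCL2, BCL2L1 and MCL1). The comparisons ask how the balance between both sides stands under each drug and in cells edited in TLE1, a gene for a transcriptional co-repressor.

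Nalm6 is a B-cell precursor ALL line, the TLE1 knockout is a Nalm6 derivative edited with CRISPR/Cas9, and CEM is a T-cell ALL line. CHIR-99021, called CHIR below, inhibits the kinase GSK3 and is used as a Wnt agonist, while prednisolone and dexamethasone are glucocorticoids. There were 11 groups of 3 libraries, and each treatment lasted 24 h. Parental Nalm6 cells were untreated, or had dexamethasone at 100 nM, CHIR at 0.5 µM or prednisolone at 5 µM. The dexamethasone group has untreated Nalm6 libraries titled for it, called the dexamethasone-set controls below. The knockout was untreated, or had dexamethasone at 100 nM or prednisolone at 5 µM, with no untreated knockout group titled for dexamethasone. CEM cells were untreated, or had 2 µM CHIR or 10 µM prednisolone. Per the labels, Nalm6 and knockout cells grew in RPMI medium with charcoal-stripped serum, glutamine and antibiotics. The medium of CEM and whether the knockout is 1 clone are not given in the sources used here. Separate experiments are stated for only some of the groups, so p-values measure the spread between these libraries, which may in part be technical.

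The family works as a chain of binding partners. BH3-only proteins respond to stress signals: BIM (the product of BCL2L11), BMF, PUMA (BBC3) and NOXA (PMAIP1), with BID linking death receptors to mitochondria. They bind the guardians BCL2, BCL-XL (BCL2L1) and MCL1, and some also activate the effectors BAX and BAK (BAK1), which open the outer mitochondrial membrane so that cytochrome c can leave. BIM is known for its part in glucocorticoid-induced death of lymphoid cells, and the counts below speak of mRNA only, summed over all transcripts of a gene, although BCL2L11, BCL2L1 and MCL1 are each known to have isoforms of different activity.

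The sequences just upstream of BCL2L11 and BMF are shown because these are the members that rose most under glucocorticoids in both lines. Each is the 250 bases before the gene's annotated start, 5′ to 3′ on the gene's strand, from RefSeq on GRCh38.p14, at chr2:111120664-111120913 (plus strand) for BCL2L11 and chr15:40108880-40109129 (minus strand) for BMF. Capitals mark the forkhead motif GTAAACA, the letters bound by FOXO factors among others.
BCL2L11: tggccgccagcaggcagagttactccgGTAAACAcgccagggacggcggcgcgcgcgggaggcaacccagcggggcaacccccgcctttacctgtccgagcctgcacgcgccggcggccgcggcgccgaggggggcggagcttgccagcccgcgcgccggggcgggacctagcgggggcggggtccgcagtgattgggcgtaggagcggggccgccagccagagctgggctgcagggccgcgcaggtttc
BMF: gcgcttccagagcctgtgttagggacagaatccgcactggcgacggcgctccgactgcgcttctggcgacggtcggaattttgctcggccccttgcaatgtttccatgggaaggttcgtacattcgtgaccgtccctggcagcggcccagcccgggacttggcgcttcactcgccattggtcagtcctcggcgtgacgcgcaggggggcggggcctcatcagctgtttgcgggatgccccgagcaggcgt
The BCL2L11 stretch is 76.8% G and C and the BMF stretch 65.2%. Windows of 300 bases, 250 before and 50 after each start, were searched on both strands, and 9 of the 10 members have 15 such windows, some of which overlap. GTAAACA was found in 1 of them, at BCL2L11 from position -223, and in 3.42% of all 35116 windows. AGAACA, 1 arm of the glucocorticoid receptor element, was found in no member window and in 14.8% of all windows. The full element, which is that arm, 3 free bases and the arm's inverted repeat, was found in 1 window of the 35116, not in a member's. The TCF/LEF motif ATCAAAG was found at BAK1 and in 2.62% of all windows. The E-box CACGTG was found at BAX, BBC3 and BID, with 4 copies at BAX, and in 7.26% of all windows. These are letter matches in short windows, and no binding was measured.

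Total gene counts ran from 25292579 to 61930057 per library, so that a count of 0 allows a level of up to 0.0484 to 0.119 CPM (counts per 1000000 gene counts of the library), which covers counting error only. All 8 B-lineage markers were over 1 CPM in every Nalm6 and knockout group, with summed levels of 1853 to 2632 CPM against 59.1 to 96.4 in CEM. All 8 T-lineage markers were over 1 CPM in CEM, with sums of 1976 to 2147 CPM against 24.2 to 49.4 in the other lines. In every CEM group 4 of the B-lineage markers were over 1 CPM too, as were 2 of the T-lineage markers in every Nalm6 and knockout group. Replicate 1 of the dexamethasone-set controls held 32 counts over 6 T-lineage markers, where the other 2 held 1 each. TLE1 mRNA was at 24.0 to 25.4 CPM in the untreated knockout and 30.2 to 34.0 CPM in untreated Nalm6, so the counts show the transcript still present and do not measure the protein. In these bulk samples, fewer cells of a kind and less RNA per cell cannot be told apart.

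In untreated Nalm6 the guardian MCL1 was the most abundant of the 10 mRNAs per length of exon, at 50.6 ± 1.13 CPM per kilobase (SD, n = 3) and 30.7% of their summed level. PMAIP1 followed at 37.9 CPM per kilobase, then BCL2 at 16.4, BAX at 16.3 and BCL2L1 at 15.3. BAK1 was at 10.99 and BID at 10.9 on the same per-length scale, and BAK1 has a processed pseudogene, which makes its count uncertain. The lowest levels were those of the BH3-only genes BCL2L11 at 4.15, BBC3 at 1.38 and BMF at 0.739 CPM per kilobase. CEM had another order at the top, with BCL2L1 at 43.4 and MCL1 at 39.6 CPM per kilobase, while BCL2 was at 3.78. BCL2L11, BBC3 and BMF were again lowest in CEM, at 1.55, 0.377 and 0.0742 CPM per kilobase. Exon lengths come from GENCODE v29 and are those of all exons joined, so they overstate the length of the transcripts in use where a gene has several.

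The members differed widely in how far they moved between groups. BMF varied most, with a 308-fold ratio between the highest and the lowest group mean in CPM. The ratio was 10.4 for BBC3 and 9.74 for BCL2L11, and 4.44 for BCL2. The ratio was lowest for the effector BAX, at 1.52, and the guardian MCL1, at 1.62, with BAK1 next at 1.87. With the 11 groups put in order of level, adjacent groups did not overlap at 7 of 10 steps for BCL2L11 and for BMF, but at 1 of 10 for BAX. Such steps were not counted over all genes, so these counts only compare the members with each other. The order for BCL2L11 ran from prednisolone-treated Nalm6 through dexamethasone-treated Nalm6, prednisolone-treated CEM and the prednisolone-treated knockout to a run of 4 overlapping groups between 27.4 and 28.0 CPM. These 4 were the dexamethasone-treated knockout, the untreated knockout, untreated Nalm6 and CHIR-treated Nalm6, and below them lay the dexamethasone-set controls at 17.7 CPM, untreated CEM at 10.3 and CHIR-treated CEM at 7.84. For BCL2 the 4 highest groups were the Nalm6 and knockout groups that had no glucocorticoid, at 178 to 193 CPM, and they overlapped with their neighbours.

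**Figure D1:**
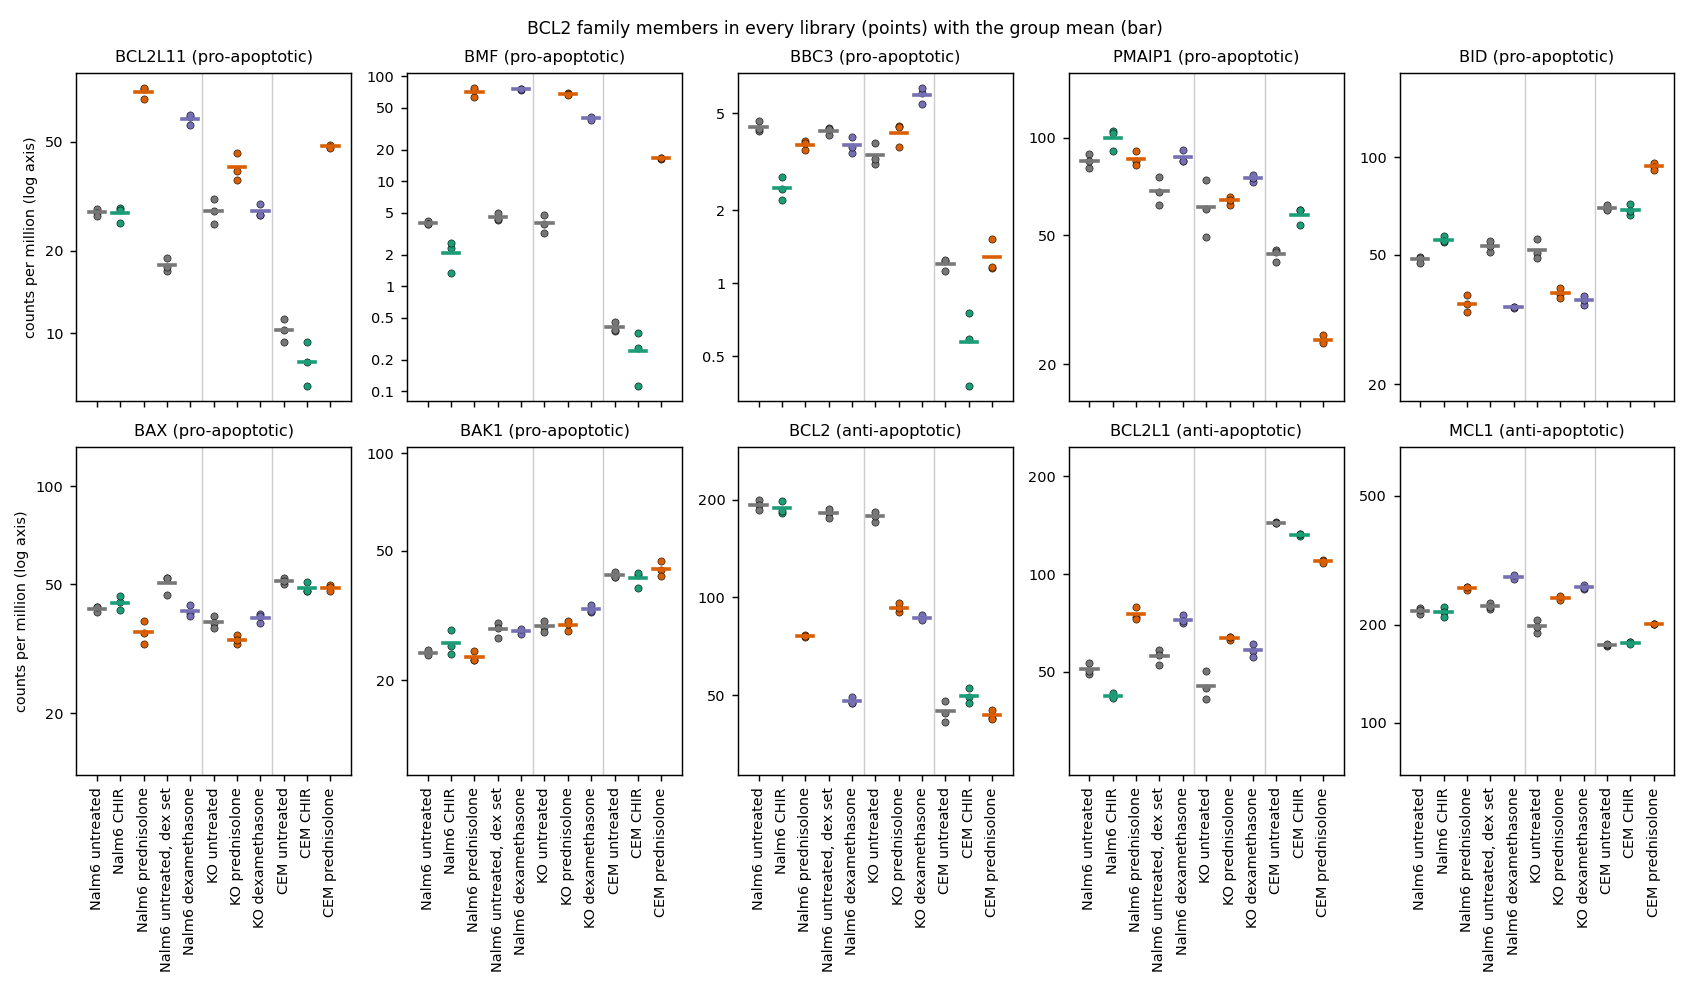
Level of each of the 10 members in all 33 libraries, in CPM on log axes, with 1 point per library and a bar at the mean of each of the 11 groups. BMF is higher in the glucocorticoid-treated groups than in the other groups of each line, BCL2L11 likewise except in the dexamethasone-treated knockout (KO), and BCL2 is low in CEM and in glucocorticoid-treated Nalm6.

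Prednisolone in Nalm6 raised the BH3-only genes BMF and BCL2L11 and lowered the guardian BCL2, while the other guardians rose. BMF stood at 4.20, 3.94 and 3.94 CPM in the untreated libraries and at 62.7, 73.2 and 76.9 CPM under the drug. Every treated library was far above every untreated one, a 17.3-fold rise (log2 fold change 4.11 ± 0.08 (SE), edgeR adjusted p = 9.86e-17). BCL2L11 was at 28.5, 27.6 and 26.7 CPM untreated and at 78.2, 78.6 and 72.0 CPM treated. This was a 2.70-fold rise with no overlap (log2 1.44 ± 0.04, adjusted p = 4.68e-14). BCL2, a guardian, was at 199, 193 and 186 CPM untreated and 75.5, 76.4 and 75.9 CPM treated. It fell to 0.387 of the untreated level (log2 -1.37 ± 0.04, adjusted p = 1.01e-14). BCL2L1 rose from 49.3, 50.3 and 53.01 CPM to 73.8, 72.9 and 79.2 CPM (log2 0.54 ± 0.05, adjusted p = 3.86e-08), and MCL1 rose from 216, 226 and 222 CPM to 261, 255 and 262 CPM (log2 0.20 ± 0.04, adjusted p = 0.000131). Both guardians thus moved against BCL2, without overlap between treated and untreated libraries.

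The remaining members moved less under prednisolone in Nalm6. BID, the link to death receptors, fell from 49.4, 48.8 and 47.3 CPM to 37.5, 33.4 and 35.2 CPM (log2 -0.49, adjusted p = 1.75e-07). BAX fell from 42.7, 41.1 and 42.4 CPM to 32.8, 35.3 and 38.6 CPM (log2 -0.26, adjusted p = 0.00065). Neither gene's groups overlapped. BBC3 was called lower at a log2 difference of -0.27 (adjusted p = 0.033), and PMAIP1 and BAK1 did not pass, at -0.01 and -0.07 on the log2 scale. In all, 8 of 10 members passed the test (4 higher, 4 lower), where 54.8% of all 18658 genes tested did (28.7% higher, 26.1% lower), and 8 members had no overlap between the groups, where 60.9% of all genes had none. The median log2 difference of the members was -0.04 and that of all genes 0.03. The BBC3 call was lost without treated replicate 2 (adjusted p = 0.115), untreated replicate 2 (0.113) or untreated replicate 3 (0.0655), with DESeq2 (0.0653) and with the unstranded counts (log2 -0.02, adjusted p = 0.906). BAK1 gained a call without treated replicate 3 (log2 -0.14, adjusted p = 0.026).

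Dexamethasone in Nalm6, read against the dexamethasone-set controls, gave a larger fall of BCL2 beside rises of BMF and BCL2L11. BMF was at 4.27, 4.37 and 4.96 CPM untreated and 75.3, 74.1 and 75.9 CPM treated, a 16.2-fold rise (log2 4.02 ± 0.06, edgeR adjusted p = 1.37e-15). BCL2L11 was at 16.8, 17.5 and 18.9 CPM untreated and 61.7, 62.6 and 57.7 CPM treated, a 3.34-fold rise (log2 1.74 ± 0.05, adjusted p = 1.91e-12). BCL2 went from 183, 187 and 175 CPM to 47.4, 49.4 and 47.2 CPM, or 0.258 of the untreated level (log2 -1.96 ± 0.04, adjusted p = 8.42e-14). No library of one group reached the range of the other for these 3 genes. PMAIP1, the NOXA gene, was called higher here (log2 0.30 ± 0.07, adjusted p = 0.00133), with 75.8, 67.9 and 61.9 CPM untreated and 84.5, 84.7 and 91.5 CPM treated. BID fell by 0.66 and BAX by 0.32 on the log2 scale, and BCL2L1 and MCL1 rose by 0.34 and 0.26. BBC3 was at -0.23 (adjusted p = 0.0592) and BAK1 at -0.06 (adjusted p = 0.401) on the same scale. Thus 8 of 10 members passed (5 higher, 3 lower), where 60.5% of all 17217 genes did (30.2% in each direction), and the groups of 9 members did not overlap, where those of 65.4% of all genes did not. The median was 0.10 for the members and 0.02 for all genes. BBC3 gained a call without treated replicate 1 (adjusted p = 0.0455) or untreated replicate 1 (adjusted p = 0.049).

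The untreated Nalm6 libraries of both sets were not alike, and this bears on every result read across them. The titles assign neither set to prednisolone-treated Nalm6, which was read against the libraries not titled for dexamethasone. Its response from the dexamethasone-set controls was not fitted. In order of deposit the prednisolone-treated Nalm6 libraries stand beside the dexamethasone-set controls. Reads assigned to no gene were 26.3% to 32.7% of a library in the former and 19.2% to 19.7% in the latter. They were 26.4% to 28.3% in the other untreated Nalm6 libraries. Which set matches the prednisolone-treated libraries was not tested. BCL2L11 was lower in the dexamethasone-set controls than in the other untreated Nalm6 libraries, at 16.8 to 18.9 CPM against 26.7 to 28.5 (log2 -0.58 ± 0.05, edgeR adjusted p = 5.14e-06). BAX was higher, at 46.4 to 52.2 CPM against 41.1 to 42.7 (log2 0.32, adjusted p = 0.000221), and BAK1 was higher by 0.30 on the log2 scale (adjusted p = 0.000658). BID, BCL2L1 and MCL1 were also called higher and PMAIP1 lower, by at most 0.24 on the log2 scale, and BCL2 differed by -0.02. In all, 7 of 10 members differed (5 higher, 2 lower), where 50.2% of 17478 genes did (25.8% higher, 24.4% lower), and 6 did not overlap, where 58.1% of genes did not. The MCL1 call was lost without untreated replicate 1 (adjusted p = 0.117), 2 (0.0599) or 3 (0.0698) of the other set, and BMF, at 0.23, gained a call without replicate 1 of the dexamethasone-set controls (adjusted p = 0.0433). MCL1 was also lost with at least 10 counts required in every library (adjusted p = 0.0652), and PMAIP1 with all 33 libraries in one fit (0.0542). BMF was also called with the unstranded counts (adjusted p = 0.0218).

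Without drug, every member differed between the knockout and Nalm6 by less than 0.5 on the log2 scale. BAK1, an effector, was at 29.1, 28.2 and 30.5 CPM in the knockout and 24.3, 23.9 and 24.8 CPM in Nalm6 (log2 0.29 ± 0.06, edgeR adjusted p = 0.00441), with no overlap. PMAIP1 was at 49.4, 60.0 and 74.1 CPM in the knockout, which spread widely, and 88.7, 80.5 and 84.9 CPM in Nalm6 (log2 -0.44 ± 0.12, adjusted p = 0.0242). BBC3 was at 3.79, 3.09 and 3.24 CPM against 4.21, 4.63 and 4.30 CPM (log2 -0.35 ± 0.11, adjusted p = 0.0357). BCL2L11 and BMF differed by 0.04 and -0.00 on the log2 scale, and their libraries overlapped. The guardians BCL2, BCL2L1 and MCL1 were at -0.09, -0.14 and -0.14, BAX at -0.12 and BID at 0.12, and none of them passed. Of these, BCL2, MCL1 and BAX did not overlap. Hence 3 of 10 members passed (1 higher, 2 lower), where 27.1% of 17208 genes did (15.3% higher, 11.8% lower), and 6 did not overlap, where 44.3% of genes did not. The BBC3 call was lost without knockout replicate 2 (adjusted p = 0.116) or 3 (0.0537), without Nalm6 replicate 1 (0.0745), 2 (0.119) or 3 (0.0893), with DESeq2 (0.0518) and with the replicate number as a block (0.0818). The PMAIP1 call was lost without knockout replicate 2 (adjusted p = 0.0925), Nalm6 replicate 1 (0.0898) or Nalm6 replicate 3 (0.0762), which left BAK1 as the 1 member called in each of these 3 fits. Calls were gained for BCL2L1 without knockout replicate 1 (adjusted p = 0.0266), and for BCL2 (0.0482) and MCL1 (0.00556) without knockout replicate 3. With all 33 libraries in one fit BCL2L1 (adjusted p = 0.0401) and MCL1 (0.00978) were also called lower.

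Prednisolone raised BMF strongly in the knockout too, but BCL2L11 rose less and BCL2 fell less than in Nalm6. BMF went from 4.80, 3.88 and 3.21 CPM to 69.1, 67.5 and 66.0 CPM, a 16.6-fold rise (log2 4.06 ± 0.11, edgeR adjusted p = 2.6e-09). BCL2L11 went from 27.9, 30.9 and 25.0 CPM to 36.3, 39.2 and 45.7 CPM, a 1.41-fold rise without overlap (log2 0.49 ± 0.10, adjusted p = 0.0023). BCL2 went from 171, 178 and 184 CPM to 89.9, 92.4 and 96.2 CPM, or 0.508 of the untreated level (log2 -0.98 ± 0.06, adjusted p = 1.06e-06). The test of the difference between both lines' responses was passed by BCL2L11 (log2 -0.92 ± 0.11, adjusted p = 0.000113) and by BCL2 (log2 0.42 ± 0.07, adjusted p = 0.00316). For BMF that difference was -0.03 ± 0.15 (adjusted p = 0.947), and for BBC3 it was 0.55 ± 0.16 (adjusted p = 0.076). The other 6 members lay between -0.07 and 0.08 on this scale, where 2 of 10 members and 3.48% of 17952 genes were called (1.10% higher, 2.38% lower). BBC3 gained a call there without knockout prednisolone replicate 1 (log2 0.63, adjusted p = 0.045) and with all 33 libraries in one fit (adjusted p = 0.0329). The dexamethasone-set controls were not used as the Nalm6 reference in this test.

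The remaining members that were called in both the knockout and Nalm6 moved in the same direction in each. BID fell by 0.49 and BAX by 0.22 on the log2 scale under prednisolone, and BCL2L1 and MCL1 rose by 0.45 and 0.25. BBC3, PMAIP1 and BAK1 did not pass, at 0.26, 0.02 and -0.03, while BBC3 had been called lower in Nalm6, at -0.27. Within the knockout 7 of 10 members were called (4 higher, 3 lower), where 41.7% of 16555 genes were (19.8% higher, 21.9% lower), and 7 did not overlap, where 52.8% of genes did not. The BAX call was lost without prednisolone replicate 2 (adjusted p = 0.05) or 3 (0.0695), with the replicate number as a block (0.06) and with no filter on low counts (0.0595). TSC22D3, a glucocorticoid-induced gene used as a check of the treatment, rose from 7.39 to 157 CPM in the knockout (log2 4.37) and from 21.6 to 348 CPM in Nalm6 (log2 3.99), and the difference of 0.41 between these responses did not pass (adjusted p = 0.0541). The glucocorticoid receptor gene NR3C1 rose from 154 to 378 CPM and from 241 to 558 CPM, with log2 responses of 1.26 and 1.18 (adjusted p of the difference = 0.584). FKBP5 rose by 1.01 in the knockout and 1.67 in Nalm6, which did differ (adjusted p = 0.00135). The part of these in the BCL2L11 and BCL2 differences was not tested.

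**Figure D2:**
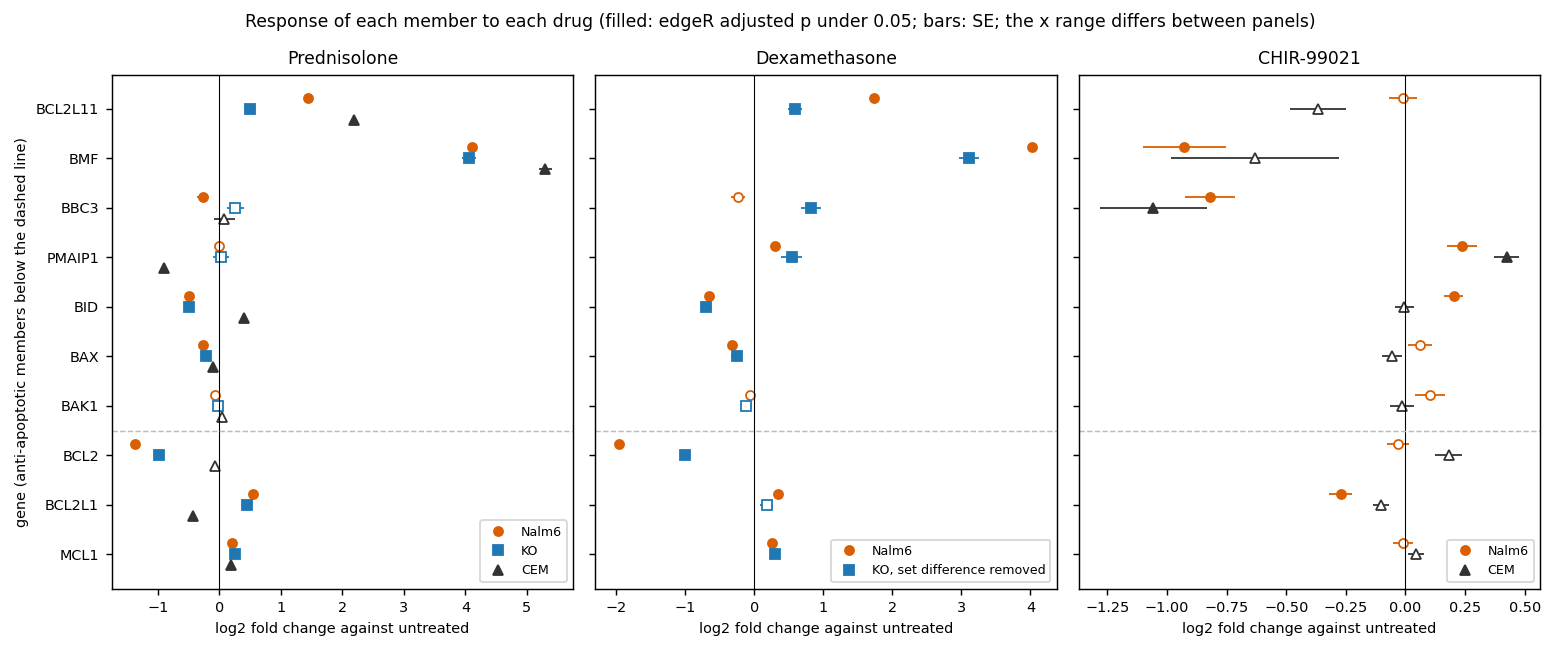
Log2 fold change of each member against untreated cells under prednisolone, dexamethasone and CHIR, with 1 panel per drug, bars of 1 SE from edgeR, filled points where the adjusted p is under 0.05 and x axes that differ between panels. BMF has the highest value in every glucocorticoid response, and the knockout's BCL2L11 and BCL2 points under prednisolone, at 0.49 and -0.98, are nearer to 0 than the parental ones at 1.44 and -1.37.

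Under dexamethasone the knockout held less BCL2L11 and BMF and more BCL2 than Nalm6 at the same dose. Whether both groups were prepared together is not given in the sources used here. Reads mapping to several places were 6.97% to 7.55% of a library in the knockout group and 5.49% to 5.72% in the Nalm6 group. Unmapped reads were 2.84% to 4.54% and 5.50% to 11.2%, in the same order. Between the untreated Nalm6 sets BCL2L11 differed by -0.58 on the log2 scale. The part of preparation in the differences below was not tested. BCL2L11 was at 27.1, 29.7 and 27.1 CPM in the knockout and 61.7, 62.6 and 57.7 CPM in Nalm6 (log2 -1.11 ± 0.04, edgeR adjusted p = 8.27e-15). BMF was at 40.0, 40.8 and 38.1 CPM against 75.3, 74.1 and 75.9 CPM (log2 -0.91 ± 0.04, adjusted p = 8.92e-15). BCL2 was at 86.6, 88.0 and 85.3 CPM against 47.4, 49.4 and 47.2 CPM, 1.82-fold higher (log2 0.86 ± 0.03, adjusted p = 6.22e-15). None of these groups overlapped. BBC3, the PUMA gene, was higher in the knockout, at 6.09, 5.46 and 6.35 CPM against 4.002, 3.44 and 3.63 CPM (log2 0.71 ± 0.10, adjusted p = 6.8e-06). BAK1 was higher by 0.23 on the log2 scale, while BCL2L1, PMAIP1 and MCL1 were lower by 0.30, 0.20 and 0.09. In all 8 of 10 members differed (3 higher, 5 lower), where 56.6% of 16763 genes did (28.5% higher, 28.1% lower), and 9 did not overlap, where 61.4% of genes did not. MCL1 lost its call without dexamethasone-treated Nalm6 replicate 3 (adjusted p = 0.0779) and BID, at 0.09, gained one without dexamethasone-treated knockout replicate 1 (adjusted p = 0.0327). With all 33 libraries in one fit the calls of PMAIP1 (adjusted p = 0.115) and MCL1 (0.168) were lost. TSC22D3 was at 157 CPM in the knockout and 474 CPM in Nalm6 in this comparison, and NR3C1 at 318 and 538 CPM. Both were also lower in the knockout without drug, by 1.52 and 0.62 on the log2 scale. Their log2 responses to dexamethasone were 5.17 and 1.14 in the knockout, with the set difference removed, and 5.23 and 1.26 in Nalm6, and their part in the comparison was not tested.

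The dexamethasone response of the knockout itself depends on which untreated level it is read from. With the difference between both untreated Nalm6 sets taken off, on the assumption that it is the same in the knockout, BCL2L11 rose 1.51-fold (log2 0.59 ± 0.10, edgeR adjusted p = 0.000242). Read directly against the untreated knockout, at 27.9, 30.9 and 25.0 CPM, the 27.1, 29.7 and 27.1 CPM under dexamethasone overlapped with them (log2 0.02, adjusted p = 0.884). BMF rose either way, 8.64-fold with the set difference removed (log2 3.11 ± 0.15, adjusted p = 3.22e-10), and BCL2 fell to 0.500 of its level (log2 -1.001 ± 0.06, adjusted p = 8.26e-09). BBC3 and PMAIP1 rose by 0.83 and 0.55 on the log2 scale with the set difference removed, BID fell by 0.70 and MCL1 rose by 0.30. BAX fell by 0.26 (adjusted p = 0.0126) with the removal and was at 0.06 (adjusted p = 0.388) without it, while BAK1 was at -0.11 (adjusted p = 0.268) with it and rose by 0.19 (adjusted p = 0.0276) without it. PMAIP1 without the removal was at 0.30 (adjusted p = 0.0571), and BCL2L1 was at 0.18 (adjusted p = 0.146) with it and rose by 0.38 (adjusted p = 0.00154) without it. With the removal 8 of 10 members were called (5 higher, 3 lower), where 40.0% of 17375 genes were (18.5% higher, 21.5% lower). Without untreated knockout replicate 1, BCL2L1 gained a call with the removal in place (log2 0.26, adjusted p = 0.021), as it did with all 33 libraries in one fit (0.0425). The set with which the dexamethasone-treated knockout was prepared is not given in the sources used here.

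Prednisolone in CEM gave the largest rises of BMF and BCL2L11 among the drug comparisons made here, from low starting levels, and left BCL2 near its untreated level. BMF stood at 0.455, 0.373 and 0.384 CPM untreated, which is 21, 17 and 13 counts, and at 16.4, 16.6 and 16.5 CPM treated, or 711, 659 and 580 counts. The rise was 39.5-fold (log2 5.30 ± 0.11, edgeR adjusted p = 1.34e-16), and its size rests on those low untreated counts. BCL2L11 went from 10.3, 11.3 and 9.31 CPM to 48.9, 48.0 and 47.7 CPM, a 4.55-fold rise (log2 2.19 ± 0.06, adjusted p = 2.12e-15). BCL2 was at 44.1, 41.4 and 48.0 CPM untreated and 42.6, 42.3 and 45.1 CPM treated, which overlapped (log2 -0.07 ± 0.05, adjusted p = 0.27). BCL2L1 fell, from 144, 144 and 143 CPM to 111, 109 and 108 CPM (log2 -0.42 ± 0.03, adjusted p = 3.32e-09), and MCL1 rose by 0.19. PMAIP1 fell from 45.2, 41.4 and 44.4 CPM to 23.6, 23.2 and 24.6 CPM, or 0.534 of its level (log2 -0.91 ± 0.04, adjusted p = 2.11e-11). BID rose from 69.5, 68.6 and 71.2 CPM to 96.2, 93.6 and 91.4 CPM (log2 0.40 ± 0.03, adjusted p = 2.55e-08). For both genes the treated and untreated libraries stood apart.

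In this comparison 7 of 10 members were called (4 higher, 3 lower), where 45.1% of 17381 genes were (22.3% higher, 22.8% lower), and 7 did not overlap, where 52.9% of genes did not. The call of BAX (log2 -0.10, adjusted p = 0.0343) was lost without prednisolone replicate 2 (adjusted p = 0.0582) or 3 (0.15), without untreated replicate 2 (0.0732) or 3 (0.0661), and with DESeq2 (0.072). It was also lost with no filter on low counts (adjusted p = 0.0607) and with all 33 libraries in one fit (0.108). BBC3, at 0.08 on the log2 scale, turned to -0.08 without prednisolone replicate 1 (adjusted p = 0.787) and was called higher in the unstranded counts (log2 0.36, adjusted p = 0.0405). BCL2 gained a call without untreated replicate 2 (log2 -0.12, adjusted p = 0.0207).

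The prednisolone responses of CEM and Nalm6 differed in 6 of 10 members (4 higher, 2 lower in CEM), where 26.9% of 20491 genes differed (14.7% higher, 12.2% lower). However, the doses were 10 µM in CEM and 5 µM in Nalm6, so line and dose cannot be told apart. The untreated Nalm6 libraries used here were those not titled for dexamethasone. Between the untreated Nalm6 sets BCL2L11 differed by -0.58 and BMF by 0.23 on the log2 scale. The size of the differences from CEM thus depends on a reference that the titles do not settle. CEM exceeded Nalm6 by 0.77 ± 0.07 for BCL2L11 and 1.20 ± 0.21 for BMF on the log2 scale (edgeR adjusted p = 1.61e-08 and 0.00011). BCL2 differed by 1.32 ± 0.06 (adjusted p = 2.85e-14), as it fell in Nalm6 and did not pass the test in CEM. BID, up in CEM and down in Nalm6, differed by 0.90 ± 0.06 (adjusted p = 3.62e-11). BCL2L1, down in CEM and up in Nalm6, differed by -0.95 ± 0.06 (adjusted p = 8.86e-12). PMAIP1 differed by -0.89 ± 0.07 (adjusted p = 1.1e-09), with a fall in CEM and a log2 difference of -0.01 in Nalm6. BAX, at 0.18, gained a call without prednisolone-treated Nalm6 replicate 3 (log2 0.26, adjusted p = 0.0016) and with at least 10 counts required in every library (0.0319).

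Before treatment, CEM held less BCL2 and more BCL2L1 than Nalm6. The dexamethasone-set controls were the reference, as the deposited names of both groups carry numbers of one series. Against the dexamethasone-set controls BCL2 was at 0.238 of the Nalm6 level (log2 -2.07 ± 0.05, edgeR adjusted p = 7.95e-13), and BCL2L1 was 2.52-fold higher (log2 1.33 ± 0.05, adjusted p = 1.19e-11). BMF was at 0.0881 of the Nalm6 level (log2 -3.51 ± 0.16, adjusted p = 2.25e-10), and BBC3, BCL2L11, PMAIP1 and MCL1 were lower by 1.86, 0.81, 0.69 and 0.44 on the log2 scale. BAK1 and BID were higher by 0.51 and 0.35. With the other untreated Nalm6 libraries as the reference the differences were larger for BCL2L11, at -1.36, BAK1, at 0.84, and BID, at 0.57. Other members moved too: over all alternatives run PMAIP1 reached -0.91, BCL2L1 1.55, MCL1 -0.30 and BBC3 -1.29. BAX differed by -0.01 (adjusted p = 0.856), turned to 0.01 without untreated CEM replicate 1, and was 0.33 higher in CEM when the other untreated Nalm6 libraries were the reference (adjusted p = 4.67e-07). Thus 9 of 10 members differed (3 higher, 6 lower), where 77.5% of 18018 genes did (40.2% higher, 37.3% lower), and 9 did not overlap, where 79.3% of genes did not.

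Under CHIR BBC3 was lower in both lines, BMF and BCL2L1 were lower in Nalm6, and PMAIP1 was called higher in both lines. Each moved by less than 1 on the log2 scale except BBC3 in CEM. In Nalm6 BBC3 went from 4.21, 4.63 and 4.30 CPM to 2.20, 2.43 and 2.75 CPM (log2 -0.82 ± 0.10, edgeR adjusted p = 0.00144). BMF went from 4.20, 3.94 and 3.94 CPM to 1.33, 2.29 and 2.58 CPM, with treated replicate 1 lowest (log2 -0.93 ± 0.17, adjusted p = 0.0106). BCL2L1 went from 49.3, 50.3 and 53.01 CPM to 41.8, 43.0 and 41.4 CPM (log2 -0.27 ± 0.05, adjusted p = 0.00642). These falls took in a pair of BH3-only genes and a guardian. PMAIP1 rose by 0.24 (adjusted p = 0.0438) and BID by 0.20 (adjusted p = 0.0146) on the log2 scale, and the other 5 members lay between -0.03 and 0.10. Thus 5 of 10 members were called (2 higher, 3 lower), where 7.88% of 18082 genes were (3.16% higher, 4.72% lower), and 5 did not overlap, where 29.9% of genes did not. The median was -0.01 for the members and for all genes.

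Several of these calls were lost with a library left out. Calls over all genes also fell, from 1425 to 779, 428 or 409 without untreated replicate 1, 2 or 3. The BMF difference was -0.94 on the log2 scale without untreated replicate 3 and -0.93 with every library. Without untreated Nalm6 replicate 3, BBC3 alone of the 10 kept its call, as BMF (adjusted p = 0.0509), PMAIP1 (0.163), BID (0.105) and BCL2L1 (0.0535) lost theirs. Without untreated replicate 2, PMAIP1 (0.202) and BID (0.0888) were lost, and PMAIP1 was also lost without untreated replicate 1 (0.0695) or CHIR replicate 2 (0.114), and BID without CHIR replicate 1 (0.0533). The PMAIP1 call was lost with the replicate number as a block as well (adjusted p = 0.0908), with the unstranded counts (0.0508) and with all 33 libraries in one fit (0.107). In CHIR replicate 3 the glucocorticoid-induced gene FKBP5 was at 59.9 CPM, where the highest CHIR library had 117 CPM. That library differed from CHIR replicates 1 and 2 by a chi-square of 42.1 and 43.7 per degree of freedom, where those differed by 5.77. Without CHIR replicate 3 the count of members called was again 5, and calls over all genes rose to 2708. The Wnt target AXIN2 did not pass the test under CHIR in Nalm6 (log2 -0.19, adjusted p = 0.221) or in CEM (log2 0.56, adjusted p = 0.0644).

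In CEM, BBC3 was at 1.13, 1.23 and 1.24 CPM untreated, or 52, 56 and 42 counts, and 0.589, 0.376 and 0.751 CPM under CHIR, or 31, 16 and 27 counts. The groups did not overlap (log2 -1.06 ± 0.22, edgeR adjusted p = 0.0104). PMAIP1 rose from 45.2, 41.4 and 44.4 CPM to 59.8, 53.9 and 59.9 CPM (log2 0.42 ± 0.05, adjusted p = 0.000347). BMF stood at 19, 11 and 4 counts under CHIR against 21, 17 and 13 untreated. Its levels of 0.111 to 0.361 and 0.373 to 0.455 CPM did not overlap, but at these counts it did not pass the test (log2 -0.63 ± 0.35, adjusted p = 0.294). BCL2L11 went from 10.3, 11.3 and 9.31 CPM to 9.27, 7.83 and 6.40 CPM and did not pass (log2 -0.37 ± 0.12, adjusted p = 0.0687), nor did BCL2 at 0.18 (adjusted p = 0.0608). So 2 of 10 members were called (1 higher, 1 lower), where 10.8% of 17200 genes were (5.41% higher, 5.43% lower), and 5 did not overlap, where 29.5% of genes did not. BCL2L11 gained a call without CHIR replicate 1 (log2 -0.52, adjusted p = 0.00903), with DESeq2 (0.0216) and with the replicate number as a block (0.031). It also gained one with no filter on low counts (adjusted p = 0.000572) and with all 33 libraries in one fit (0.0179). With the unstranded counts the fall of BBC3 was -0.68. BCL2 gained a call without CHIR replicate 3 (0.0273), without untreated replicate 3 (0.0363) and with DESeq2 (0.0453). It also gained one with no filter (adjusted p = 0.00437), with robust moderation (0.0437) and with all 33 libraries in one fit (0.0206). The CHIR doses were 0.5 µM in Nalm6 and 2 µM in CEM, and the difference between the lines was not tested.

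To put both sides in one value, the balance was taken for each library as the mean log2 CPM of the 7 pro-apoptotic genes minus that of the 3 guardians. It is a description with equal weight for each gene and no test. The balance was -2.56, -2.61 and -2.61 in untreated Nalm6 and -1.77, -1.76 and -1.73 under prednisolone, a shift of 0.84 toward the pro-apoptotic side. With dexamethasone it went from -2.67, -2.68 and -2.62 to -1.49, -1.57 and -1.50, a shift of 1.14. In the knockout it was -2.52, -2.55 and -2.55 untreated and -1.90, -1.85 and -1.84 under prednisolone, a shift of 0.68. The knockout on dexamethasone was at -1.86, -1.85 and -1.86, which is 0.33 below Nalm6 on the same dose. CEM had the lowest untreated balance, at -3.09, -3.09 and -3.17, and it rose by 1.10 under prednisolone to -1.97, -2.04 and -2.07. All glucocorticoid-treated groups stood above all other groups. CHIR gave -2.83, -2.62 and -2.56 in Nalm6, which overlapped with the untreated libraries, and -3.30, -3.51 and -3.50 in CEM, which did not.

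**Figure D3:**
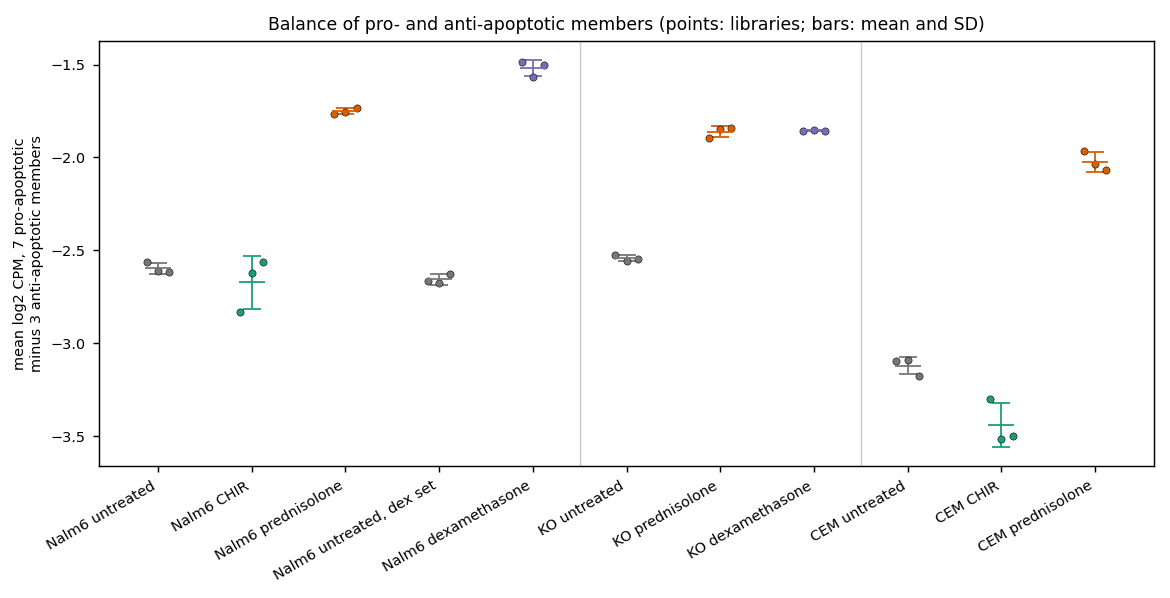
Balance of the family in each of the 33 libraries, as mean log2 CPM of 7 pro-apoptotic members minus that of 3 anti-apoptotic members, with 1 point per library and bars at the mean and 1 SD of each group. The 5 glucocorticoid-treated groups have means between -2.02 and -1.52, above the means of the 6 other groups, which run from -3.44 to -2.54.

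A few genes carried most of these shifts. Each gene's part is its own log2 difference divided by the number of genes on its side, with the sign turned for guardians, and the parts sum to the shift. Under prednisolone in Nalm6 the parts were 0.59 for BMF, 0.45 for BCL2 and 0.21 for BCL2L11, against -0.19 for BCL2L1. In the knockout BMF had the same part, 0.59, with 0.31 for BCL2 and 0.08 for BCL2L11. Under dexamethasone in Nalm6 the part of BCL2, 0.64, was above that of BMF, 0.58. In CEM under prednisolone BMF had 0.76, BCL2L11 0.32 and BCL2L1 0.13, while BCL2 had 0.01 and PMAIP1 -0.12. The fall under CHIR in CEM came mostly from BBC3 at -0.16 and BMF at -0.12, both at low counts.

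**Figure D4:**
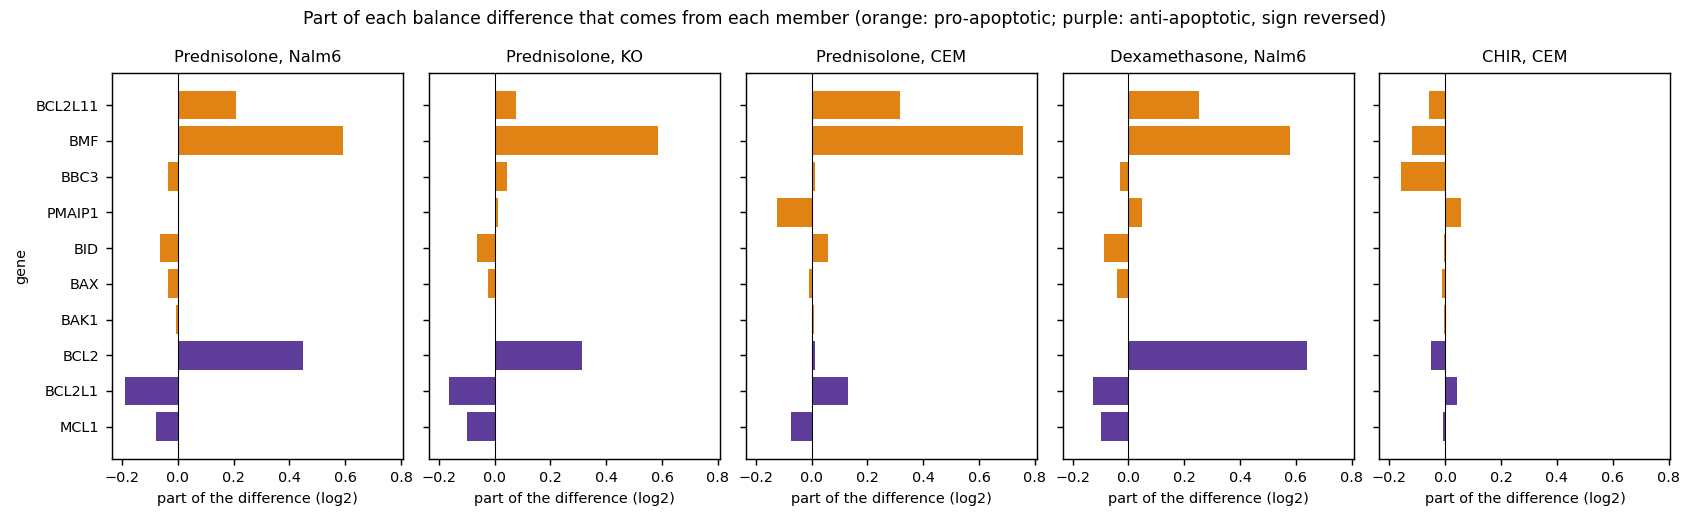
Part of each member in the shift of the balance, in log2 CPM on the x axis, with 1 panel for each of 5 treatment comparisons, where bars to the right of 0 move the balance to the pro-apoptotic side. BMF has the longest bar under prednisolone in each line, BCL2 that under dexamethasone in Nalm6, and BCL2 is near 0 under prednisolone in CEM.

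The balance weighs BMF as much as MCL1, although their levels differ greatly, and its size depends on that choice. Without BMF the shift under prednisolone was 0.27 in Nalm6, 0.10 in the knockout and 0.38 in CEM, and that under dexamethasone in Nalm6 was 0.58, with no overlap in any of the 4. Untreated CEM differed from the dexamethasone-set controls by -0.46 with every member. Without BMF these groups were at -2.31 and -2.29, with overlap, and without BCL2 at -3.73 and -2.43, without overlap. Without BCL2 the shift under prednisolone was 0.26 in Nalm6, 0.24 in the knockout and 1.11 in CEM, and that under dexamethasone in Nalm6 was 0.38. Also without BCL2, the 0.33 by which the knockout lay below Nalm6 on dexamethasone became 0.02 above it, with overlap. With levels per length summed instead, the ratio of the 7 pro-apoptotic genes to the 3 guardians was 1.00 ± 0.0404 (SD, n = 3) in untreated Nalm6 and 1.09 ± 0.0263 under prednisolone. It was 0.944 ± 0.0182 in the dexamethasone-set controls and 1.10 ± 0.0205 under dexamethasone. In the knockout it was 0.986 ± 0.0569 untreated, 1.01 ± 0.00500 on prednisolone and 1.01 ± 0.00399 on dexamethasone, and the untreated libraries overlapped with both treated groups. In CEM it was 0.876 ± 0.00882 untreated, 0.980 ± 0.0181 on prednisolone and 0.948 ± 0.0396 under CHIR. The ratio in CEM was thus higher under CHIR than untreated, without overlap, where the balance in logs fell. CHIR-treated Nalm6 had the highest mean of these ratios, 1.16 ± 0.0805, where the balance in logs was among the low ones. Its libraries, at 1.06, 1.19 and 1.21, overlapped with those of Nalm6 on dexamethasone, at 1.09 to 1.13, and on prednisolone, at 1.06 to 1.12. The sum follows the abundant PMAIP1 and MCL1, and the mean of logs gives the rare BMF and BBC3 equal weight.

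Companion genes were counted against the share of all genes called, which under prednisolone was 54.8% in Nalm6, 41.7% in the knockout and 45.1% in CEM, and 60.5% under dexamethasone in Nalm6. Over all genes the median log2 difference was 0.03, -0.00, 0.02 and 0.02 in the same order. Among 13 other BCL2 family genes, 9 were tested under prednisolone in Nalm6, of which 2 rose and 5 fell (median -0.35). HRK, a further BH3-only gene, went from 18.8 to 8.12 CPM (log2 -1.24, edgeR adjusted p = 6.05e-11). Under dexamethasone 2 of 9 rose and 4 fell (median -0.07), with HRK again lower by 1.50 on the log2 scale. In the knockout on prednisolone 1 of 9 rose and 4 fell (median 0.02), and BNIP3, a mitophagy receptor, fell by 1.22. HRK fell less in the knockout than in Nalm6, by 0.75 on the log2 scale (adjusted p = 0.000908). In CEM, where 10 were tested, 2 rose and 2 fell under prednisolone (median 0.02), and HRK, called lower, was near the detection floor at 0.309 and 0.115 CPM.

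Downstream of the mitochondrion, all 11 apoptosome and caspase genes were called under prednisolone in Nalm6, 5 higher and 6 lower (median -0.18). CYCS, the cytochrome c gene, which has many processed pseudogenes and so an uncertain count, fell by 0.51 on the log2 scale (edgeR adjusted p = 1.14e-07). Under dexamethasone 2 of 11 rose and 6 fell (median -0.21), with CYCS down by 0.74. In the knockout on prednisolone 0 rose and 4 fell (median -0.08), with CASP2 down by 0.49, and in CEM 3 rose and 3 fell (median -0.01), with the initiator caspase gene CASP9 up by 0.68. Of the 6 inhibitor of apoptosis genes, 4 rose and 1 fell under prednisolone in Nalm6 (median 0.13), 3 rose and 1 fell in the knockout (median 0.29), and 3 rose and 0 fell in CEM (median 0.10). BIRC3, which encodes a ubiquitin ligase of this class, rose from 0.510 to 3.87 CPM in Nalm6 (log2 2.89, adjusted p = 6.6e-11) and from 25.9 to 84.4 CPM in CEM (log2 1.68, adjusted p = 3.19e-16). In the knockout BIRC3 started higher, at 1.58 CPM, and rose by 1.36, which is 1.50 less than in Nalm6 on the log2 scale (adjusted p = 0.00104). Under dexamethasone in Nalm6 3 of these 6 genes rose and 1 fell (median 0.16), with BIRC3 up by 3.97.

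The death receptor list, which meets the family at BID, had 2 genes higher and 2 lower of 8 tested under prednisolone in Nalm6 (median 0.00). CFLAR, an inhibitor of caspase-8 activation, had a log2 rise of 0.74 in these cells (edgeR adjusted p = 8.01e-10) and 0.84 in the knockout (adjusted p = 6.61e-06), where 3 of 8 rose and 0 fell (median -0.09). Under dexamethasone in Nalm6 4 of 9 rose and 2 fell (median 0.03), with CFLAR up by 1.12 and the receptor gene FAS by 1.06. In CEM 3 of 8 rose and 0 fell (median 0.22), with CASP8 up by 0.78. The response of FAS to prednisolone was lower in the knockout than in Nalm6, by 0.99 on the log2 scale (adjusted p = 0.0141), at levels of 2.26 to 3.66 CPM.

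Of 12 genes that anchor BCL2 family proteins or govern their turnover, 11 were tested under prednisolone in Nalm6, and 2 rose and 4 fell (median -0.07). GSK3B, whose kinase phosphorylates MCL1 and promotes its degradation, rose by 0.76 on the log2 scale there (edgeR adjusted p = 1.88e-11). Its rise was 0.68 in the knockout (adjusted p = 2.54e-05), where 2 of 11 rose and 3 fell (median -0.06). It was 1.28 under dexamethasone in Nalm6 (adjusted p = 4e-12), where 3 of 11 rose and 4 fell (median -0.02). In CEM 1 of 12 rose and 7 fell (median -0.11), led by VDAC1 at -0.37.

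Under CHIR in Nalm6, where 7.88% of all genes were called, the calls were 1 of 9 other family genes (BNIP3L, -0.48), 2 of 11 apoptosome and caspase genes (largest CYCS, 0.34), 0 of 6 inhibitors, 2 of 9 death receptor genes (TNFRSF1A, -0.38) and 1 of 11 anchors (VDAC2, 0.13). In CEM, where 10.8% of all genes were called, they were 3 of 10 (BIK, 0.40), 1 of 11 (CYCS, 0.28), 1 of 6 (BIRC3, 0.26), 2 of 8 (FAS, 0.30) and 2 of 12 (VDAC2, 0.27).

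Without drug, 27.1% of all genes were called between the knockout and Nalm6. The calls were 2 higher and 0 lower of 9 other family genes (BNIP3, 1.02), 3 and 1 of 11 apoptosome and caspase genes and 1 and 0 of 6 inhibitors (BIRC3, 1.65). They were 2 and 2 of 8 death receptor genes (TNFRSF10A, -1.82) and 0 and 1 of 11 anchors (DYNLL2, -0.24). TNFRSF10A had group means of at most 1.52 CPM here. The prednisolone responses of the knockout and Nalm6 differed for 3.48% of all genes, and in these lists for 3 other family genes, 0 apoptosome and caspase genes, 1 inhibitor, 1 death receptor gene and 0 anchors, the largest of each being those given above.

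On dexamethasone 56.6% of all genes were called between the knockout and Nalm6, and the part of preparation was not tested here either. In the same order of lists the calls were 2 higher and 4 lower (HRK, 1.47, and BIK, 1.19), 3 and 3 (CASP2, -0.46), 1 and 2 (BIRC5, -0.18), 3 and 4 (TNFRSF10A, -1.46) and 5 and 4 (VDAC1, 0.53). The dexamethasone response of the knockout, with the difference between the untreated sets removed, had 40.0% of all genes called. There the lists had 1 higher and 3 lower (BNIP3, -2.13), 2 and 5 (CYCS, -0.66), 3 and 1 (BIRC3, 2.24), 3 and 0 (CFLAR, 0.66) and 2 and 3 (GSK3B, 0.86). Values in brackets are log2 differences from edgeR.

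Between CEM and Nalm6 the prednisolone response differed for 26.9% of all genes. It was higher in CEM for 4 and lower for 2 of the other family genes (BNIP3, 1.24), 3 and 1 of the caspase list (CASP9, 0.43), 1 and 1 of the inhibitors (BIRC3, -1.20), and 4 and 1 of the death receptor genes. The largest of these last was TNFRSF10A (1.66), at 0.112 and 0.221 CPM in CEM. It was higher for 1 and lower for 3 of the anchors (GSK3B, -0.61). Untreated, where 77.5% of all genes differed, CEM had 3 higher and 4 lower of the other family genes, 4 and 5 of the caspase list, 3 and 0 of the inhibitors, 7 and 2 of the death receptor genes and 5 and 5 of the anchors. The higher ones included BIRC3 (6.37), CFLAR (1.35), CASP10 (1.68), FAS (3.39), TNFRSF1A (2.39) and GSK3B (1.19). The lower ones included HRK (-5.44), BNIP3 (-2.05), BCL2L2 (-2.54), CASP9 (-1.96), TNFRSF10A (-4.10) and TNFRSF10B (-4.69). BCL2A1, TNFSF10 and TRIM17 were at 2.44, 13.2 and 1.71 CPM in CEM and at no more than 3 counts in each of the Nalm6 libraries compared.

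The untreated Nalm6 sets, with 50.2% of all genes called, differed in these lists too, by less than 1 on the log2 scale. Relative to the other untreated libraries the dexamethasone-set controls had 3 higher and 2 lower of the other family genes (BCL2L15, -0.70), 4 and 1 of the caspase list (CASP9, 0.49), 2 and 4 of the inhibitors (BIRC3, -0.69), 3 and 3 of the death receptor genes (TNFRSF1A, -0.59) and 2 and 6 of the anchors (GSK3B, -0.48).

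The genes most like BCL2L11, BMF and BCL2 were sought among 11650 genes by Pearson's r of the mean log2 CPM over the 11 groups, which share controls and lines, so that r is a description only. Closest to BCL2L11 were ASXL2 (r = 0.97), ZC3HAV1 (0.96) and JAK1 (0.96). Closest to BMF were BTG1 (0.99), CSGALNACT1 (0.97) and the glucocorticoid-induced TSC22D3 (0.97). Closest to BCL2 were TRMT112 (0.98), MSI2 (0.98) and AFMID (0.97).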

How the data were processed

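Per the labels' protocols, RNA came from a column kit and went into standard Illumina libraries. The deposited files hold read counts per gene, as the authors made them, in the layout that STAR writes; the submitters' processing notes name hg19, Bowtie2 and DESeq2 without roles, and read filters, annotation release and software versions are not given in the sources used here. The treatment protocol in the labels assigns drugs to lines the other way round from the titles, which were followed. Counts of the sense-strand column (column 4) were used, since they were 12.3 to 15.3 times those of the opposite strand. The 4 rows of unassigned reads, 36.0% to 49.2% of a library, stayed out of all totals. BAK1, which has a processed pseudogene, can lose reads to the copy, so its level is uncertain. Gene identifiers were used as deposited, and 58652 of 62446 matched a symbol.

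Levels are CPM of the gene total. Each comparison was fitted on all its genes with edgeR 4.0.16 (R 4.3.3; filterByExpr, TMM, quasi-likelihood F test, Benjamini-Hochberg, called at an adjusted p under 0.05), over the groups compared alone. The SE is the log2 fold change divided by the square root of F. The balance adds 0.5 counts before logs. The fits were also run on simulated counts with fewer changed genes than were called in any comparison, and no result rests on that run. Alternatives were DESeq2 1.42.0, RLE factors, 2 other filters, robust moderation, all 33 libraries in one fit, the unstranded column, the replicate number as a block and each library left out in turn, and, for the balance, no added counts and TMM library sizes. Leaving libraries or members out of the balance was chosen after seeing the data. Replicates differed beyond sampling noise in all 33 pairs (chi-square per degree of freedom 1.85 to 43.7), and none were merged. Members, lists and tests were chosen with earlier results of these data known. All 10 members are named, and of each companion list the called genes whose log2 fold change was 1 or more in either direction, or else the called gene with the largest change. Of the genes this rule names, 1 is not reported here, nor is 1 further list.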

Additional observations from a re-analysis of the deposited data

Results flagged for a closer look

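The prednisolone response differed between the knockout and Nalm6 by the test of the difference itself for BCL2L11 (-0.92 on the log2 scale) and BCL2 (0.42). Between CEM and Nalm6, at 10 and 5 µM, it differed for BCL2L11 (0.77), BMF (1.20), PMAIP1 (-0.89), BID (0.90), BCL2 (1.32) and BCL2L1 (-0.95). For BID and BCL2L1 the direction was opposite in both lines. The Nalm6 responses in these differences were all read from the untreated libraries not titled for dexamethasone. All groups have 3 libraries, too few for a search for single outlying samples.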

How the results depend on the processing

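Over 13 comparisons, 80 of the 130 member values were called. Of these, 64 kept their call under every alternative run and 16 lost it under at least one, while 16 others gained a call and 34 were never called. For members with a call in any setting, signs turned for BAX (0.0625) and BAK1 (0.188) under dexamethasone in the knockout with the set difference not removed, for BBC3 under prednisolone in CEM with libraries left out (-0.0776 to 0.145), and for BAX in untreated CEM against Nalm6 with all libraries in one fit (0.00126), with libraries left out (-0.0584 to 0.0103) and with the other untreated Nalm6 set (0.332). The count of members called under CHIR in Nalm6 ran from 1 to 5 with a library left out. In the untreated knockout it ran from 1 to 4, and was 5 with all libraries in one fit. Under CHIR in CEM it was 4 both with no filter and with all libraries in one fit. DESeq2 gave no adjusted p for BMF and BBC3 there.

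With unstranded counts the mean balance was higher in every group, at -2.42 in untreated Nalm6, -2.48 under CHIR, -1.52 under prednisolone, -2.50 in the dexamethasone-set controls and -1.32 under dexamethasone. It was then -2.35, -1.66 and -1.68 in the knockout untreated, on prednisolone and on dexamethasone, and -2.89, -3.15 and -1.75 in CEM untreated, on CHIR and on prednisolone. The order of treated over untreated groups under glucocorticoids held, and the cause of the upward move was not tested. TMM library sizes leave differences in balance unchanged by construction.

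Deviations of same-numbered replicates correlated at -0.344 to 0.309, and no comparison was above 0.1 in all its pairs, which does not show that pairing is absent. The correlations were -0.274, -0.338 and -0.344 for prednisolone in the knockout. They were 0.309, 0.0803 and 0.212 between the untreated Nalm6 sets. With the replicate number as a block, 4 members were called under CHIR in Nalm6, 2 in the untreated knockout, 6 under prednisolone in the knockout and 3 under CHIR in CEM, and the count was as without it elsewhere. Over all genes, the 1425 calls under CHIR in Nalm6 became 925 with the block, 2320 with no filter and 409 to 2708 with a library left out. The 624 calls of the prednisolone difference between knockout and Nalm6 became 981 with no filter, 1277 with all libraries in one fit and 361 to 1852 with a library left out. With a library left out, the 4655 calls of the untreated knockout ran from 2804 to 6732 and the 1865 under CHIR in CEM from 1001 to 1948. Depth limits BMF and BBC3 in CEM, which had 4 to 56 counts per library without glucocorticoid.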
